A study of Mus musculus with 20 samples.

Results

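The comparison described here is the step from 25 to 50 mg/kg/day benzo(a)pyrene (BaP) in mouse liver. It rests on 10 of the 20 arrays of the series, 5 for each of these doses, chosen by the exposure written in the sample labels and by no measured value. All 10 animals were male Muta™Mouse (transgenic mouse strain 40.6, which carries a bacterial *lacZ* reporter for mutations) at 25 weeks of age, housed singly, gavaged daily for 28 days with BaP in olive oil and killed 3 days after the final dose. Replicates 6 to 10 received 25 mg/kg/day and replicates 11 to 15 received 50 mg/kg/day. The remaining 10 arrays, olive oil controls (replicates 1 to 5) and 75 mg/kg/day (replicates 16 to 20), entered the model only to share its estimate of the spread and are given as levels beside some genes. Each value is a log2 ratio of 1 animal's liver RNA (Cy5) over a universal mouse reference RNA (Cy3) pooled from 11 cell lines, so a level above 0 means more signal in liver than in the reference at that probe, and levels of different probes are not compared. A difference is the mean at 50 minus the mean at 25 mg/kg/day on this log2 scale, and below these are also called the higher and the lower dose. The labels name both lungs and liver as the tissue. The 12 hepatocyte markers that could be measured averaged log2 ratios of 5.05 to 5.63 over arrays of the lower dose and 5.10 to 5.53 over those of the higher. Of the lung epithelium markers, 5 were measurable, with averages of -0.15 to 0.21 and -0.21 to 0.06. The surfactant genes *Sftpb* and *Sftpc* had no probe above background on at least 4 of 5 arrays of either dose.

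BaP is a polycyclic aromatic hydrocarbon that enters cells and binds the aryl hydrocarbon receptor, which switches on cytochrome P450 enzymes of the Cyp1 family. These enzymes turn BaP into diol epoxides that form bulky adducts on DNA, and the adducts are removed by nucleotide excision repair or bypassed by translesion polymerases. DNA damage also stabilizes p53, which raises transcripts for cell cycle arrest, repair and apoptosis. The liver further handles foreign compounds through the nuclear receptors CAR and PXR, and it is the main site of cholesterol synthesis, where a fall in membrane sterol releases the transcription factor SREBP-2 from Insig proteins and raises the enzymes of the mevalonate and sterol pathway together.

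The 10 arrays were similar in signal, with 55.5% to 61.0% of spots well above background at the lower and 52.5% to 62.4% at the higher dose, and 0 saturated spots. The ratio of median signal to background was lowest for replicates 12 and 13 at 50 mg/kg/day (1.29 and 1.33). Replicate 13 also had 387 outlier spots, against 88 to 149 on the other arrays compared, and outlier spots were removed before averaging. Correlations between arrays over all present probes were 0.938 to 0.986 across the doses and 0.940 to 0.983 within a dose. The arrays lay on 6 slides. Only 3 slides held both doses (replicates 9 and 15 on slide 1, 8 and 14 on slide 2, and 10 and 11 on slide 3), and 2 of the 5 arrays of each dose were on slides without the other dose. All arrays at 25 mg/kg/day were at position 2 of their slide and 4 of 5 at 50 mg/kg/day at position 3, so dose and position cannot be told apart.

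No transcript passed the test between the doses. A transcript was called where the limma adjusted p was under 0.05 and the fold over 1.5, and of 26850 present probes 0 were called higher (0%) and 0 lower (0%) at 50 mg/kg/day, with a lowest adjusted p of 0.304. At an unadjusted p under 0.05, 1245 probes (4.64%) were higher and 1005 (3.74%) lower, together 2250 where chance alone gives 1342. The typical standard error of a difference was 0.136 and the typical SD between arrays of a dose was 0.206. All 5 arrays at 50 mg/kg/day lay above all 5 at 25 mg/kg/day for 288 probes (1.07%) and below them for 173 (0.644%). Both separation and a fold over 1.5 held for 26 probes that were higher and 8 that were lower, of which 3 in each direction had no gene symbol. These percentages are the background for every count that follows, and none of the genes named below was called in this fit.

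**Figure D1:**
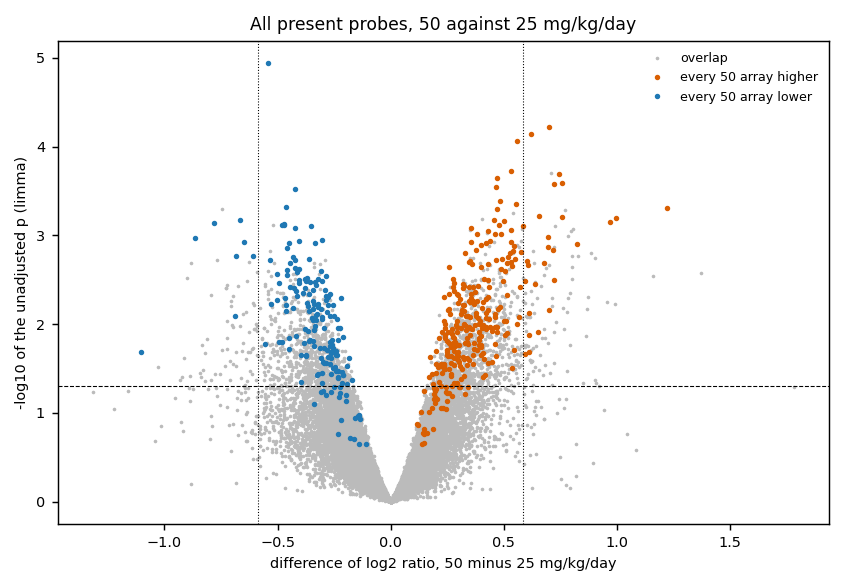
Each point is 1 of the 26850 present probes, with the difference of the log2 ratio (50 minus 25 mg/kg/day) on the horizontal axis and -log10 of the unadjusted limma p on the vertical axis. Colored points are probes whose arrays at the 2 doses do not overlap (288 higher in orange, 173 lower in blue), the dotted lines mark a fold of 1.5 and the dashed line an unadjusted p of 0.05, and among the colored points the largest difference is 1.22, for *Marco*.

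Among genes represented by their brightest present probe, 13 were higher and 3 lower with separate arrays and a fold over 1.5. The 10 of lowest p among the higher and all 3 lower are described first. They differ in function and include a macrophage receptor, a sterol sensor, a blood cell transcription factor and parts of the secretory, translation and RNA decay machinery.

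*Marco*, a scavenger receptor of macrophages that takes up bacteria and particles, gave 3.58, 2.70, 2.74, 3.11 and 2.35 in replicates 6 to 10 and 4.01, 4.22, 3.59, 4.45 and 4.33 in replicates 11 to 15. The highest array at the lower dose (3.58) reached just below the lowest at the higher dose (3.59), so the doses did not overlap but touched. The difference was 1.22 ± 0.30 (SE, n = 5 and 5), a 2.33-fold higher level at the higher dose, with an adjusted p of 0.462 in limma. Control and 75 mg/kg/day means were 2.41 and 4.59, making *Marco* the only one of these 13 genes whose 4 group means followed the order of dose, a description in which the 25 and 50 mg/kg/day levels chose the gene.

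*Nfe2*, a transcription factor of red cell and platelet precursors, had levels of 0.96, 0.91, 1.23, 1.21 and 1.07 at the lower dose. At 50 mg/kg/day it had 1.40, 2.46, 2.03, 1.96 and 2.37. All arrays at the higher dose were above the highest at the lower dose, by the gap between 1.23 and 1.40 or more, and the difference was 0.97 ± 0.24 (adjusted p = 0.462). The other 5 measurable erythroid markers differed little, from *Klf1* (-0.09), an erythroid master regulator, to the heme synthesis gene *Alas2* (0.03), with the globin gene *Hba-a1* at 0.02.

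*Kdelr2*, the receptor that returns resident proteins from the Golgi to the endoplasmic reticulum, was tightly grouped at the lower dose (-1.81, -1.68, -1.71, -1.55 and -1.64). At 50 mg/kg/day its levels were -0.42, -1.30, -0.53, -0.04 and -1.11, widely spread but all higher. The difference was 1.00 ± 0.25 (adjusted p = 0.462). The controls ran from -1.46 to -0.48 with a mean of -1.04, and the mean at 75 mg/kg/day was -1.69, close to that at 25 mg/kg/day (-1.68). A second *Kdelr2* probe differed by only 0.15.

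*Pan3*, a subunit of a complex that trims poly(A) tails, was likewise tightly grouped in the animals of one dose, with -2.13, -2.08, -2.08, -2.03 and -2.03 at the lower dose and -0.95, -2.004, -1.11, -0.72 and -1.47 at the higher dose. The groups were separated only by the narrow gap between -2.03 and -2.004. The difference was 0.82 ± 0.22 (adjusted p = 0.462) and its second probe, well above background on 3 arrays of the lower and 1 of the higher dose, gave -0.002. *Eif4g1*, the scaffold of the cap-binding translation initiation complex, *Usf2*, a transcription factor that binds E boxes, and *Ogfr*, the opioid growth factor receptor, differed by 0.72, 0.69 and 0.68, with second probes of -0.11 for *Eif4g1* and 0.46 for *Ogfr*. *Exoc4*, a subunit of the exocyst that tethers vesicles to the plasma membrane, ranged from -1.14 to -0.74 at the lower dose and from -0.63 to -0.04 at the higher dose. Its difference of 0.62 ± 0.12 had the lowest unadjusted p of these 13 genes (7.15e-05 in limma, adjusted p = 0.462). *Myh9*, the heavy chain of nonmuscle myosin, differed by 0.61, with a highest array of -2.70 at the lower dose and a lowest of -2.68 at the higher dose.

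Of the lower transcripts, *Cd38*, an enzyme on the cell surface that consumes NAD, gave 1.72, 1.87, 2.13, 1.85 and 1.81 at the lower dose and 0.50, 1.33, 1.19, 0.25 and 0.58 at the higher dose. The difference was -1.10 ± 0.44, with the 25 mg/kg/day level 2.15-fold above that at the higher dose (adjusted p = 0.5085). A second, dimmer *Cd38* probe, well above background on only 2 arrays at the lower and 1 at the higher dose, gave -0.05. *Sec24a*, which selects cargo for vesicles leaving the endoplasmic reticulum, ranged from 3.58 to 4.22 at the lower dose and from 2.73 to 3.48 at the higher dose (difference -0.78, second probe -0.09). *Lsm5*, part of a ring of proteins that binds U6 RNA and decaying messages, ranged from -0.71 to -0.55 and from -1.58 to -0.92 (difference -0.61).

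**Figure D2:**
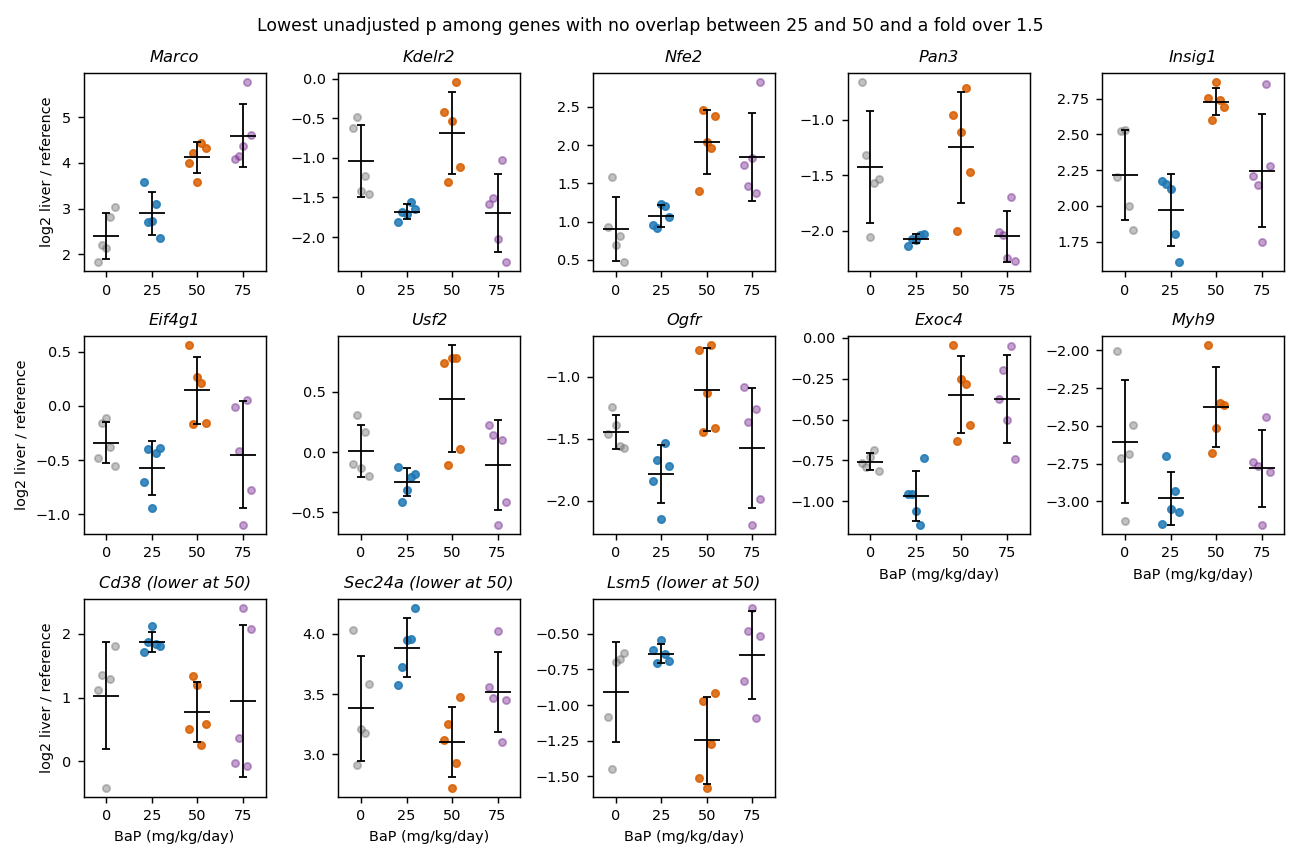
Each panel shows 1 gene, with the BaP dose in mg/kg/day on the horizontal axis and the log2 ratio of liver over reference on the vertical axis; points are single arrays and bars the mean ± SD (n = 5). Blue (25) and orange (50) points do not overlap in any panel, which is how the genes were chosen, while the gray controls mostly spread across both and *Marco* stays high at 75 mg/kg/day.

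Across these 13 genes, the control mean lay between the means of both doses in 11, and the 75 mg/kg/day mean in 11. The 75 mg/kg/day mean was nearer to that at the lower dose in 9 genes and nearer to that at the higher dose in 4 (*Exoc4*, *Marco*, *Nfe2* and *Cd38*). These genes were chosen for separate arrays and a large difference between the lower and the higher dose. Such a choice by itself tends to place the means of the other groups between those doses. These counts therefore do not show a pattern across the doses. Replicates 12 and 15 were the 2 arrays at the higher dose nearest the 25 mg/kg/day mean for 9 genes, including *Kdelr2*, *Pan3*, *Usf2*, *Eif4g1* and *Ogfr*. Of the 7 genes with another present probe, that probe had the same direction in 5, and its arrays overlapped between doses in all 7. On the 3 slides that held both doses, the differences ranged in size from 0.12 for *Ogfr* on slide 1 to -1.88 for *Cd38* on slide 2. Their direction was fixed by the choice of genes whose arrays do not overlap. Slide 1, which held replicates 9 and 15, gave the smallest size for every one of these genes but *Nfe2* and *Insig1*, among them *Kdelr2* (0.44), *Eif4g1* (0.28), *Usf2* (0.23) and *Lsm5* (-0.28). With slide as a block, the differences of *Marco* and *Myh9* were 1.65 and 0.86 (adjusted p = 0.0598 for both in limma).

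**Figure D3:**
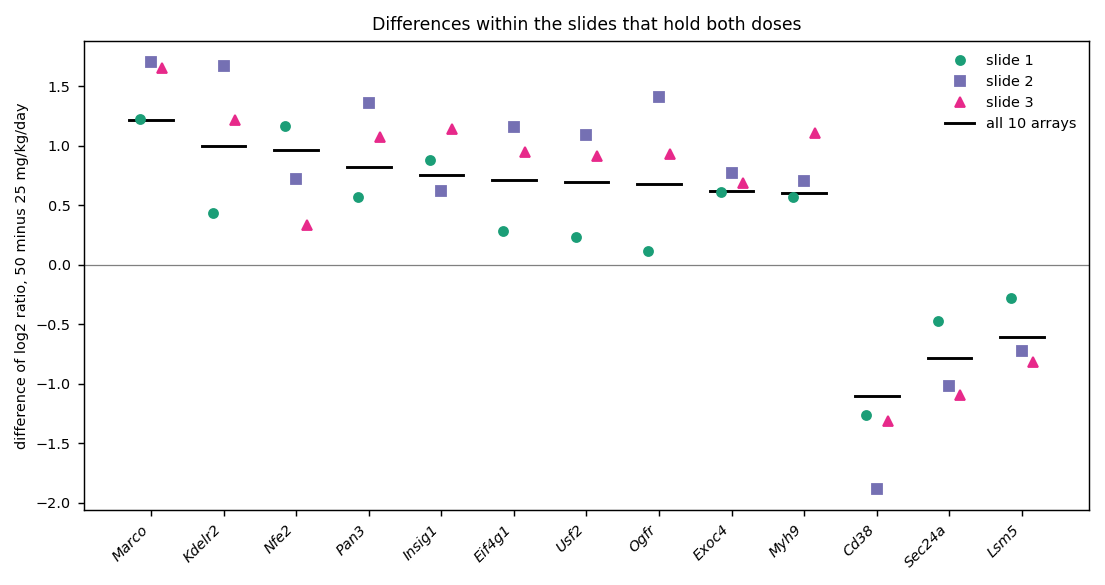
For each of the 13 genes, symbols give the difference of the log2 ratio (50 minus 25 mg/kg/day) between the single arrays of each dose on slides 1, 2 and 3, and black lines the difference over all 10 arrays. The side of 0 is fixed by the choice of genes, and slide 1 lies nearest to 0 for every gene but *Nfe2* and *Insig1*.

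Of the gene lists compared, sterol synthesis held the most genes with separate arrays. Of 19 measurable members, 13 were higher and 6 lower at 50 mg/kg/day, 7 were higher and 0 lower at an unadjusted p under 0.05 (36.8% of the list, against 4.71% of all 12827 genes higher and 3.1% lower), and 3 were separate (*Insig1*, *Mvd* and *Lss*), a share of 15.8% where 1.19% of all genes were separate and higher. None was called. The median difference was 0.120 against 0.0028 for all genes, and 0.041 without replicate 7. Within slides 1 to 3 the median was 0.336, -0.091 and -0.0088, and over all arrays it turned to -0.156 relative to all probes when arrays were centered on their medians in place of loess, although each of these 3 genes stayed higher on that scale, from 0.359 for *Mvd* to 0.608 for *Insig1*. Among the members, *Insig1*, *Fdft1*, *Lss*, *Stard4* and *Hsd17b7* were named by the rule for named genes, and the others below were chosen after their values were seen.

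The promoters of 4 of these genes are shown because they share a short sequence element near their start sites. NF-Y, a factor that binds the CCAAT box, acts with SREBP-2 at many sterol promoters. The sequences are the 250 bases before the RefSeq transcription start, read 5′ to 3′ on the gene's strand, from RefSeq on build GRCm38.p6, with CCAAT or its reverse complement ATTGG in capitals.

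Insig1: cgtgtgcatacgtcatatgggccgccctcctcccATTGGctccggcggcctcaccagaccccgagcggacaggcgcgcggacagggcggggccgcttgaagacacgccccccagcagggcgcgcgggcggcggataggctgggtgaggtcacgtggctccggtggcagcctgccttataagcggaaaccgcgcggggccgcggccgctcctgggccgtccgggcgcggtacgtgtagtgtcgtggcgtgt
Mvd: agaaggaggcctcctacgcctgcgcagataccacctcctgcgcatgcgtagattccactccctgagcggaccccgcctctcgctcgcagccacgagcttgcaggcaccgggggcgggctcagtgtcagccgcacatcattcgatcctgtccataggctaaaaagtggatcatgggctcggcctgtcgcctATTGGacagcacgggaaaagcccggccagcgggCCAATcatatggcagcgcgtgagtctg
Lss: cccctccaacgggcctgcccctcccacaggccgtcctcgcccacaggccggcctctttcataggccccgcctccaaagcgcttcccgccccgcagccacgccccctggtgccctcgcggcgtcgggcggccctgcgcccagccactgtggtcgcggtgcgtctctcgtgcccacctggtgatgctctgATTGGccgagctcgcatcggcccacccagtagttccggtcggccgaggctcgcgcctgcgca
Mvk: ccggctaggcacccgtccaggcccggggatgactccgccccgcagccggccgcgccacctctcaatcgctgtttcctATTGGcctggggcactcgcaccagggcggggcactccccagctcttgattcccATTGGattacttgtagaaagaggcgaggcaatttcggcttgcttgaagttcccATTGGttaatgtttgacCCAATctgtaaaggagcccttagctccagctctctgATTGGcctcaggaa

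They lie at chr5:28071162-28071411 (plus strand, *Insig1*), chr8:122443423-122443672 (minus strand, *Mvd*), chr10:76531355-76531604 (plus strand, *Lss*) and chr5:114444019-114444268 (plus strand, *Mvk*). *Mvk* had 5 copies, *Mvd* 2 and *Insig1* and *Lss* 1 each, the copy nearest the start beginning at base -14 in *Mvk*, -27 in *Mvd*, -62 in *Lss* and -216 in *Insig1*. None of these overlapped a copy of the GC box GGGCGG, searched on both strands in the same way. In windows from 250 bases before to 50 after the start, 14 of the 15 measured members with a promoter entry held CCAAT on either strand (93.3%), *Dhcr7* being without it, and 37.4% of all 32851 promoters held it. GGGCGG was likewise in 14 of 15 (93.3%, against 35.7%). The 32851 promoters were not limited to measured genes. Of 24 measured p53 targets with an entry, 54.2% held CCAAT and 66.7% GGGCGG. Of 8 members of the aryl hydrocarbon receptor battery, 12.5% and 37.5% did. Of the 6 members that were lower at 50 mg/kg/day, the 5 with a promoter entry held CCAAT too, such as *Hsd17b7* (3 copies, difference -0.37) and *Nsdhl* (4 copies, -0.04). *Stard4*, the lowest member and the one without an entry, differed by -0.59 ± 0.59, with 1 array of each dose above 5.

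*Insig1*, whose promoter has the single CCAAT box shown above, encodes the protein that holds SREBP in the endoplasmic reticulum and is itself an SREBP target. Its levels were 2.17, 2.15, 2.12, 1.80 and 1.61 at the lower dose and 2.75, 2.60, 2.86, 2.74 and 2.69 at the higher dose. Every array at the higher dose exceeded every array at the lower, and the spread at the higher dose was narrow (SD 0.10). The difference was 0.76 ± 0.17, a 1.69-fold higher level (adjusted p = 0.462 in limma), with control and 75 mg/kg/day means of 2.22 and 2.25. A second *Insig1* probe gave a difference of 0.34 with overlapping arrays.

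*Mvk*, which phosphorylates mevalonate, gave 1.23, 0.83, 0.55, 0.83 and 0.89 at the lower dose and 1.36, 1.22, 1.68, 1.27 and 1.33 at the higher dose. Only replicate 6 of the lower dose (1.23) reached above an array of the higher, replicate 12 (1.22). The difference was 0.51 ± 0.16 (adjusted p = 0.462), and a second *Mvk* probe gave 0.38. *Pmvk*, the next kinase, differed by 0.35 and its second probe by 0.38.

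*Mvd*, the decarboxylase that ends the mevalonate steps, had 0.37, 0.41, 0.18, 0.31 and 0.09 at the lower dose and 0.49, 0.64, 1.15, 0.77 and 0.96 at the higher dose. The groups were separate, with a difference of 0.53 ± 0.14 (adjusted p = 0.462). *Fdft1*, squalene synthase and the first step committed to sterols, differed by 0.58 ± 0.17 at its brightest probe and -0.15 at a dimmer one, and at the first its highest array at the lower dose (1.69) exceeded its lowest at the higher dose (1.58).

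*Lss*, which closes the sterol rings to give lanosterol, gave 1.64, 1.32, 1.38, 1.58 and 1.73 at the lower dose and 1.94, 1.97, 2.14, 1.88 and 2.32 at the higher dose. The doses were separate at this probe, where the difference was 0.52 ± 0.14, and also at its second probe, where it was 0.60 ± 0.17 (adjusted p = 0.462 for both). *Cyp51*, which demethylates lanosterol, differed by 0.44 with overlapping arrays, and its other probes gave -0.04 and 0.34.

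Along the pathway, the 9 enzymes compared from *Hmgcs1* to *Cyp51* were all higher at 50 mg/kg/day, by 0.12 to 0.58, and 6 had an unadjusted p under 0.05. The 7 enzymes compared after *Cyp51* were split, 3 higher and 4 lower, from -0.37 to 0.11, with 0 at an unadjusted p under 0.05. This split of the pathway was made after the values were seen and was not tested. For the brightest probes of *Mvk*, *Fdft1*, *Lss* and *Cyp51*, means at 50 mg/kg/day were 1.37, 1.89, 2.05 and 2.09. At 75 mg/kg/day they were lower, at 0.98, 1.71, 1.82 and 1.77, and in controls 0.86, 1.51, 1.39 and 1.66. These genes were picked with their levels at the lower and the higher dose known, so the lower means elsewhere do not show a pattern across the doses. Probes of 1 gene could disagree, as for *Hmgcs1* (0.17 and 0.68) and *Dhcr7* (0.01 and 0.34). *Srebf2*, which encodes SREBP-2, differed by -0.13. On the 3 slides with both doses, the differences of the 3 separate genes, whose direction their separation fixes, ran from 0.20 for *Lss* to 1.14 for *Insig1*, both on slide 3. *Soat1*, which esterifies cholesterol and was chosen after its values were seen, was the only transcript called higher with slide as a fixed block (difference 1.16, adjusted p = 0.0401 in limma). Without the block its difference was 0.80 (adjusted p = 0.462), from levels of -4.79 to -4.46 at the lower and -4.59 to -3.36 at the higher dose that overlapped, and its other probes gave 0.28 and 0.42.

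**Figure D4:**
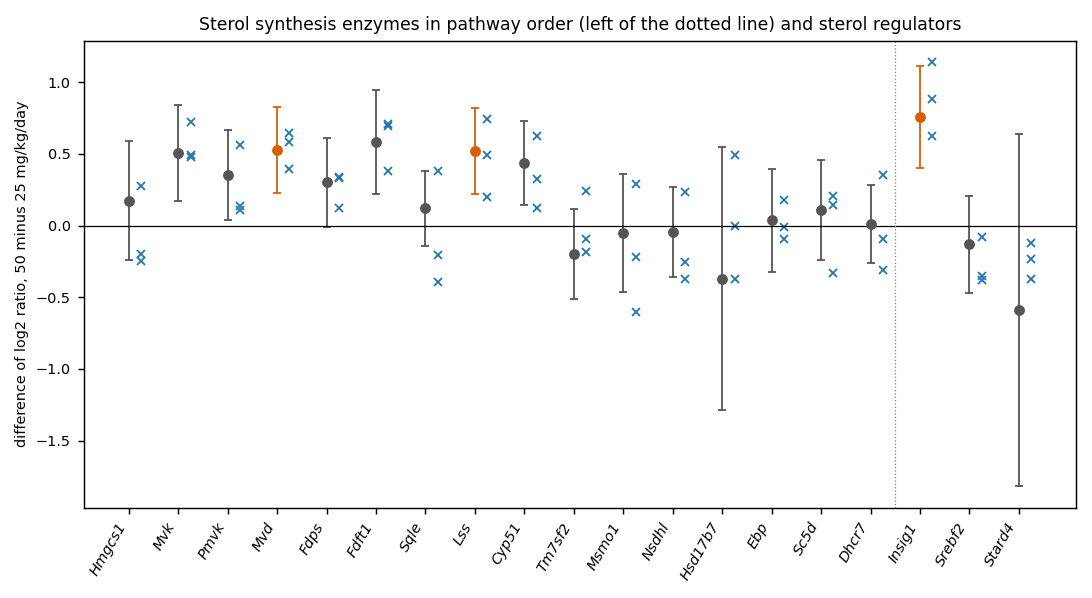
Circles give the difference of the log2 ratio (50 minus 25 mg/kg/day) with its 95% confidence interval for the 19 sterol synthesis members, orange where the 5 arrays of each dose do not overlap, and crosses the differences on each of the 3 slides with both doses. The 9 enzymes from *Hmgcs1* to *Cyp51* all lie above 0, the 7 after them scatter around 0, and *Insig1* has the largest difference (0.76).

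Targets of p53 were mostly higher at 50 mg/kg/day, without separation at the brightest probe of each gene. Of 32 measurable targets 26 were higher, 5 were higher and 2 lower at an unadjusted p under 0.05, 0 were separate and 0 were called. *Mdm2*, chosen after its values were seen, differed by 0.27 at its brightest probe, with overlap, and by 0.33 at a dimmer probe that was separate. The median difference was 0.148, which turned to -0.016 relative to all probes under median centering. *Cdkn1a*, the p21 inhibitor of cyclin-dependent kinases, gave -1.59, -1.67, -1.57, -2.02 and -1.76 at the lower dose and -0.997, -0.67, -1.27, -1.67 and -1.22 at the higher dose. Only replicate 14 lay among the arrays of the lower dose, and the difference was 0.56 ± 0.22 (adjusted p = 0.5085). On slide 2, which held replicate 14, the difference was -0.10, against 0.80 and 0.77 on the other slides. Control and 75 mg/kg/day means were -1.81 and -0.21.

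*Phlda3*, a p53-induced repressor of Akt signaling, differed by 0.42 and *Ccnd1*, the G1 cyclin D1, by 0.40, each with overlapping arrays (adjusted p = 0.494 and 0.572). For *Phlda3* the overlap came from replicate 13 (-2.29), and for *Ccnd1* from replicates 7 (-1.67), 13 (-1.68) and 14 (-1.82). *Btg2*, an antiproliferative target, differed by 0.34, *Ccng1* (cyclin G1) by 0.25, *Zmat3*, an RNA-binding target, by 0.23 and the death receptor gene *Tnfrsf10b* by 0.22 from a probe well above background on 1 array of each dose. *Bax* and *Apaf1*, which act in mitochondrial apoptosis, differed by 0.12 and -0.05. The 2 lowest members were *Tigar*, which limits glycolysis, at -0.55, and the ribosomal protein like gene *Rps27l* at -0.42. *Tigar* ranged from -0.49 to 0.10 at the lower dose and from -1.04 to -0.41 at the higher dose, and its second probe differed by -0.05.

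DNA repair genes were split evenly, 14 higher and 15 lower of 29, with a median of -0.005, 5 higher and 0 lower at an unadjusted p under 0.05 and 2 separate (6.9%, against 1.19% of all genes). The separate pair was *Brca1*, which acts in homologous recombination, with levels of -3.34 to -3.02 at the lower and -2.87 to -2.67 at the higher dose, and *Polh*, a translesion polymerase, with -0.86 to -0.64 and -0.63 to -0.42. Their differences were 0.32 and 0.22 (adjusted p = 0.530 and 0.546). The *Polh* probe was well above background on 4 arrays of the lower and 3 of the higher dose. A second *Polh* probe differed by 0.28 with overlapping arrays, and with the liver channel alone the first gave 0.02. Of the genes that recognize and open bulky adducts, *Ddb1* differed by 0.52, *Xpc* by 0.33 and *Ercc3* by 0.32, all with overlapping arrays, while *Ddb2*, which pairs with *Ddb1*, gave 0.10 and *Xpa* -0.14.

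Immediate early genes, which respond within minutes to growth signals and handling, were higher in 19 of 22, 6 of them and 0 lower at an unadjusted p under 0.05, with a median of 0.202 that was 0.048 relative to all probes under median centering. *Myc*, a growth-promoting transcription factor, gave -3.83, -3.77, -2.95, -3.74 and -3.75 at the lower dose and -1.84, -2.66, -2.30, -3.33 and -3.59 at the higher dose. Replicate 8 stood above the other arrays of the lower dose and lay above replicates 14 and 15 of the higher. The difference was 0.87 ± 0.29 (adjusted p = 0.466), and within slides it was 0.15, -0.38 and 1.91. *Ier5* differed by 0.43 and *Ier2* by 0.57 (second probe -0.05), and *Egr1*, a zinc finger factor, by 0.68 from levels that ran from -3.48 to -1.71 and from -3.27 to -0.98. *Jun* was the lowest at -0.16. *Klf2* had levels of 3.24 and 3.53 in replicates 6 and 7 and 5.04 in replicate 12, against -2.06 to 1.66 on the other arrays of both doses, and these 3 arrays lay on the slides that held only 1 of the doses.

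Interferon response genes were higher in 26 of 31 (83.9%, against 50.7% of all genes), with 7 of them and 0 lower at an unadjusted p under 0.05. Only 1 was separate (3.23%, against 1.19% of all genes), too few to describe the list, and 0 were called. The median was 0.175, 0.113 without replicate 6 and 0.065 relative to all probes under median centering. *Isg15*, a ubiquitin-like protein induced by interferon, gave -1.10, -1.02, -0.86, -0.80 and -1.05 at the lower dose and -0.36, -0.65, -0.67, -0.51 and -0.28 at the higher dose. The groups were separate, the difference was 0.47 ± 0.17 (adjusted p = 0.485), and both means lay below the control mean of -0.06. *Igtp*, a GTPase against intracellular parasites, was 0.71 to 1.68 at the lower and 1.38 to 1.86 at the higher dose, a difference of 0.59, with a control mean of 2.08. *Usp18*, which removes Isg15 from proteins, differed by 0.63 and *Irf7*, a regulator of interferon genes, by 0.62, both overlapping. For *Igtp*, *Usp18* and *Irf7* the slide 1 differences were the smallest (0.05, 0.37 and 0.14). The lowest member was the chemokine gene *Cxcl10* at -0.24. MHC class II genes were even, 4 higher and 4 lower.

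**Figure D5:**
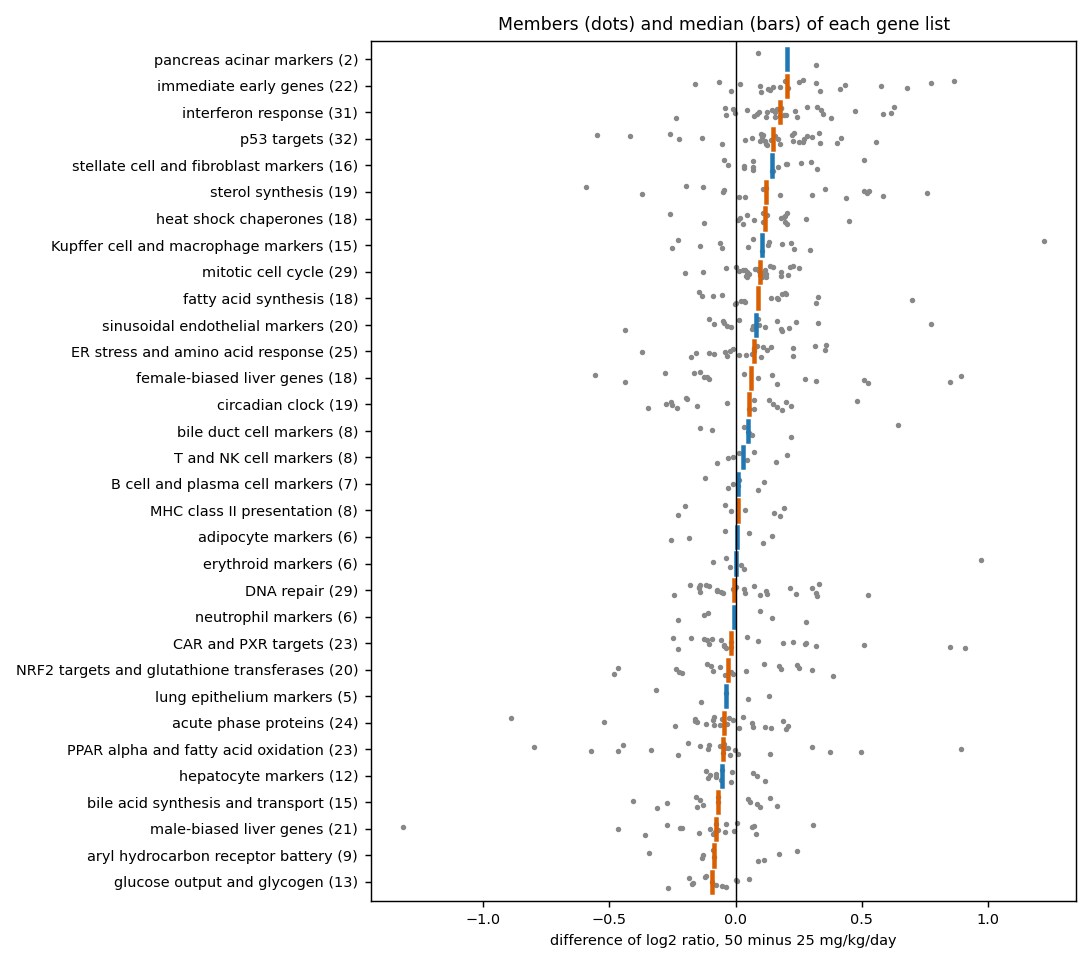
Each row is 1 gene list, with its number of measured genes in parentheses; dots are the members' differences of the log2 ratio (50 minus 25 mg/kg/day) and bars the list medians, orange for pathways and blue for cell type markers. The black line is the median of all 12827 genes (0.0028), and every list median lies between -0.094 and 0.203.

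Genes of xenobiotic metabolism varied widely between animals and were not called. The 9 measured members of the aryl hydrocarbon receptor battery differed by -0.34 to 0.24, 4 higher and 5 lower, with 0 at an unadjusted p under 0.05. *Cyp1a1* and *Cyp1a2*, which activate BaP, differed by -0.09 and -0.13, *Cyp1a1* being well above background on 3 of 5 arrays of each dose, and *Nqo1*, a quinone reductase, by 0.24. Of 23 CAR and PXR targets, 10 were higher and 13 lower, with 3 at an unadjusted p under 0.05. These were *Cyp2b10*, *Cyp2b13* and *Cyp2c38*. *Cyp2b10*, the standard CAR target of mouse liver, gave 2.37, 0.95, 0.75, 2.72 and 1.77 at the lower dose and 1.52, 1.59, 3.43, 3.43 and 3.13 at the higher dose. Its groups overlapped, since replicates 11 and 12 were below replicates 6, 9 and 10, and the difference was 0.91 ± 0.43 (adjusted p = 0.587). *Cyp2b13* and *Cyp2c38* differed by 0.85 and 0.51, and their second probes by 0.11 and 0.53. Both *Cyp2c38* probes were well above background on only 3 arrays of the lower dose, and on 5 of the higher.

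*Cyp3a44*, a steroid hydroxylase more abundant in female liver, was represented by 2 probes that did not behave alike. Its bright probe gave 5.76 to 6.15 at the lower and 5.24 to 6.42 at the higher dose (difference -0.12), and its dim probe 0.33 to 1.15 and 1.14 to 3.94 (difference 1.37 ± 0.40, unadjusted p = 0.00268 and adjusted p = 0.462 in limma). The dim probe's groups overlapped only by 1.14 against 1.15, and its highest value was that of replicate 13. *Cyp2b9* likewise gave 0.32 at its bright probe and 0.90 at a dim one, and *Cyp2c40* -0.11 and 0.23. Cyp2b, Cyp2c and Cyp3a genes are close paralogs, so probes of these families can share signal. The glutathione transferases *Gstm4*, *Gstm7* and *Gstm3*, which conjugate electrophiles, differed by 0.30, 0.25 and -0.09. The direction of *Gstm3*, *Cyp3a44* (bright probe) and *Cyp2c40* turned with slide as a block.

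Fatty acid oxidation and PPAR alpha targets were lower in 17 of 23, with 4 lower and 1 higher at an unadjusted p under 0.05, 0 separate and a median of -0.049 that turned to 0.050 with slide as a block. *Angptl4*, a secreted inhibitor of lipoprotein lipase, differed by -0.57, *Cidec* and *Plin2*, which coat lipid droplets, by -0.47 and -0.44, and *Cpt2*, a mitochondrial carnitine transferase, by -0.34. *Fgf21*, a fasting hormone, had a larger difference of -0.80 with an unadjusted limma p of 0.108, from 0.22 to 1.46 at the lower and -0.35 to 0.90 at the higher dose. The member higher at an unadjusted p under 0.05 was the thioesterase gene *Acot2* (0.50). *Cyp4a14*, a fatty acid hydroxylase, ran from 2.22 to 6.40 and from 3.17 to 6.61, a spread within each dose that exceeded its difference of 0.89. Fatty acid synthesis genes were higher in 13 of 18 with a median of 0.088, which was 0.051 without replicate 7 and turned to -0.052 relative to all probes under median centering.

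Markers of cell types were compared because a liver sample holds several, and in such bulk RNA fewer cells of a type and less RNA per cell cannot be told apart. The 12 hepatocyte markers differed by -0.12 (*Tat*) to 0.12 (*Alb*), with a median of -0.054 and 0.131 with slide as a block. Of 15 Kupffer cell and macrophage markers, 10 were higher, and the members other than *Marco* differed by -0.25 (*Cd163*) to 0.29 (*C1qa*), including the Kupffer cell genes *Clec4f* (-0.14), *Cd5l* (0.05) and *Vsig4* (0.07). The average of the whole list ran from 2.00 to 2.34 at the lower and from 1.97 to 2.61 at the higher dose. Of 20 sinusoidal endothelial markers 13 were higher and 7 lower, with a median of 0.0795. The lowest was *Cdh5* at -0.44, with 0.29 at a second probe, both with overlapping arrays. *Oit3* and *Fcgr2b* differed by -0.05 and -0.02 at their brightest probes. *Mmrn2*, a matrix protein of vessels, was 5.30 to 5.59 at the lower and 5.48 to 6.16 at the higher dose (difference 0.33), and *Pecam1*, an adhesion molecule of all endothelium, differed by 0.24. *Lyve1*, a hyaluronan receptor of sinusoids and lymphatics, was 1.64 to 3.52 and 2.09 to 3.98 (difference 0.77, adjusted p = 0.629), and on slides 1 to 3 its differences were 0.85, -0.30 and 2.34. A second *Lyve1* probe, well above background on 0 arrays of the lower and 3 of the higher dose, was separate and differed by 0.34 (adjusted p = 0.483 in limma). On slides 1 to 3 that probe differed by 0.38, 0.39 and 0.45, a direction its separation fixes. Stellate cell and fibroblast markers were higher in 14 of 16 with a median of 0.146, which was 0.060 without replicate 6 and 0.052 under median centering, and 0 at an unadjusted p under 0.05.

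*Ltc4s*, the leukotriene C4 synthase, gave 0.43, 0.54, 0.13, 0.09 and 0.74 at the lower dose and 1.57, 1.38, 0.44, 1.28 and 1.26 at the higher dose. Replicate 13 lay among the lower dose and the other 4 arrays lay above it. The difference was 0.80 ± 0.22 (adjusted p = 0.462), with control and 75 mg/kg/day means of 0.04 and 2.31. *Adamdec1*, a metalloprotease of macrophages, was 3.85 to 5.15 at the lower and 3.27 to 4.40 at the higher dose, a difference of -0.63, and both doses were above the control mean of 3.00. Of 29 genes taken from those the study names, 28 could be tested, and 11 had an unadjusted p under 0.05, all higher at 50 mg/kg/day. The study named that set from these arrays or, as for *Egr1*, *Apaf1* and *Bax*, from RT-PCR of p53 pathway genes in its treatment groups. The direction of the set is therefore not independent evidence. The members of these 28 not described above were *Igf1* (-0.14), *Rasip1* (-0.05), *Gemin5* (0.01), *H2-Ab1* (0.04) and *Cyp2g1* (0.18).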

How the data were processed

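Liver RNA of 20 mice was hybridised against a reference RNA on 2-colour Agilent arrays. Spot intensities were deposited as the authors' scanner software wrote them, unnormalised, and the authors' LOWESS-normalised log2 ratios were deposited beside them and used as an alternative. Per the file headers the software was Agilent Feature Extraction. The median intensities were background-corrected (normexp, offset 50), loess-normalised within arrays and averaged per probe after removal of outlier spots, in limma 3.58.1 (R 4.3.3). A probe was present where it exceeded the trimmed mean (5%) plus 3 trimmed SD of 153 negative control spots on at least 4 of 5 arrays of either dose, which left 26850 of 41174 probes and 12827 genes, each represented by its brightest present probe. The authors left out 1 array, not named in the sources used here, after clustering, and it may be among those compared here. All 20 arrays were fitted with 4 group means, the contrast was 50 minus 25 mg/kg/day, and p-values were adjusted by Benjamini-Hochberg over present probes. Every adjusted p in the text is from limma. Each animal gave 1 array, and the number of arrays limits the precision. The fit was tested on simulated data. The alternatives were slide as a block, other filters, background corrections, normalisations and weights, and leaving out each array, and the 6 arrays of the slides with both doses were added after seeing the data. Members and lists were chosen with earlier results of these data known. Named genes were the 10 of lowest p in each direction with separate arrays and a fold over 1.5, 29 genes taken from those the study names, and the 2 highest and 2 lowest members of each list. Genes outside this rule, among them *Mvd*, *Mvk*, *Soat1*, *Brca1*, *Polh* and *Ier5*, were chosen after their values were seen. No probe was found under the symbol *Ighm*. Some genes are not reported here and were left out of the counts and medians of their lists.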

Additional observations from a re-analysis of the deposited data

Results flagged for a closer look

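In 7 of 144 groups of 5 arrays (a named gene at 1 dose), 1 array lay far from the other 4 by Dixon's criterion, and chance alone flags about 1 group in 20 (7.2 here). *Pmvk* in replicate 7 at 25 mg/kg/day was 1.00, below the other arrays of its dose at 1.56 to 1.66. *Stard4* in replicate 12 at 50 mg/kg/day was 5.16, above 2.52 to 3.24. *Btg2* in replicate 7 at 25 mg/kg/day was -1.50, above -2.04 to -1.93. *Tnfrsf10b* in replicate 14 at 50 mg/kg/day was -1.32, below -0.88 to -0.73. *Myc* in replicate 8 at 25 mg/kg/day was -2.95, above -3.83 to -3.74. *Ltc4s* in replicate 13 at 50 mg/kg/day was 0.44, below 1.26 to 1.57. *Ddb1* in replicate 8 at 25 mg/kg/day was -1.95, below -1.30 to -1.19.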

How the results depend on the processing

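The doses share no replicate number, so arrays could be paired only by slide, on the 3 slides that held both doses. With each of the 20 arrays left out in turn, 0 transcripts were called in either direction. Over the other alternatives the count stayed at 0 with these exceptions. Slide as a fixed block in all 20 arrays gave 1 called higher (*Soat1*). The 6 arrays of the 3 slides with both doses, fitted without pairing by slide, gave 1 called lower (*Cd38*, adjusted p = 0.0396 in limma). With slide as a fixed block in the 10 arrays, 0 were called (lowest adjusted p = 0.56 in limma). The causes were not tested. Centering arrays on their medians in place of loess moved the median of all probes to -0.2053 and the split at an unadjusted p under 0.05 to 111 higher and 5605 lower, from 1245 and 1005. Relative to that shift the list medians were -0.0159 for p53 targets, -0.1293 for DNA repair, -0.1025 for mitotic cell cycle, -0.1556 for sterol synthesis, -0.284 for PPAR alpha targets, -0.2894 for NRF2 targets, -0.346 for male-biased genes, -0.1662 for ER stress, -0.1382 for heat shock, -0.3195 for glucose output, -0.3357 for bile acids, -0.3492 for hepatocyte and 0.1374 for T and NK cell markers, and *Jund* was -0.0162. With slide as a fixed block the NRF2 median was 0.086, *Cyp2c40* 0.137, *Cyp3a44* 0.1406 and *Gstm3* 0.1499, and with slide as a random block *Cyp2c40* was 0.0025. The block within the 10 arrays and the 6 arrays alone rest on the same within-slide differences, so their estimates are equal by design. They gave 0.1229 for NRF2 targets, 0.2224 for CAR and PXR targets, 0.1797 for *Cyp2c40*, 0.2563 for *Cyp3a44* and 0.145 for *Gstm3*. Array weights gave *Cyp3a44* 0.0076. The liver channel alone gave 0.1959 for CAR and PXR targets, 0.4497 for *Cyp2c40*, 0.1946 for *Cyp3a44* and 0.1368 for *Gstm3*. The software's processed signals gave -0.3379 for lung epithelium markers, -0.5729 for adipocyte markers and -0.0868 for *Cyp2b9*. Leaving out 1 array gave ranges of -0.1989 (without replicate 12) to 1.5626 for *Klf2*, and of -0.1902 to 0.0574 for *Cyp2c40* and -0.269 to 0.0261 for *Cyp3a44*, both highest without replicate 13. Of the remaining list medians recomputed with all other settings, 491 moved by less than the spread between replicates. Leaving out 1 array turned the medians of many lists. Without replicate 6 they included PPAR alpha targets (0.0266), hepatocyte markers (0.0377), CAR and PXR targets (0.0593), acute phase proteins (0.0352) and ER stress (-0.0086). Without replicate 14 they included Kupffer cell and macrophage markers (-0.0114), female-biased genes (-0.0121) and the circadian clock (-0.1332). NRF2 targets turned without replicate 7 (0.0371), the aryl hydrocarbon receptor battery without replicate 8 (0.003) and DNA repair without replicate 13 (0.0276). MHC class II genes and B cell, T and NK cell, neutrophil, erythroid, lung and adipocyte markers also turned. Endothelial markers turned to -0.0619 under median centering and Kupffer cell markers to -0.0599 with the processed signals. Without replicate 13, 838 probes were higher and 617 lower at an unadjusted p under 0.05, and without replicate 8, 851 and 706.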

Other observations

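Several gene groups outside the comparisons above were measured, with 0 genes called in any. Acute phase proteins, which the liver secretes in inflammation, were lower in 15 of 24, with a median of -0.045 that turned to 0.043 with slide as a block, and *Saa3*, a serum amyloid A gene, was 4.44 to 5.24 at 25 mg/kg/day and 3.08 to 5.07 in the higher dose, a difference of -0.89 ± 0.43 that was not called. *Fads1*, a desaturase of fatty acid synthesis, gave 0.01, -0.46, 0.03, 0.43 and 0.49 at the lower dose and 0.86, 0.12, 1.18, 1.03 and 0.81 at the higher. Replicate 12 lay among the lower dose, and the difference was 0.70 ± 0.20 (adjusted p = 0.462 in limma).

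Heat shock chaperones were higher in 16 of 18, with a median of 0.117 that turned to -0.138 relative to all probes under median centering. *Fkbp4*, a co-chaperone of steroid receptors, was separate, from -0.59 to -0.21 at the lower and -0.11 to 0.28 at the higher dose. Its difference was 0.45, and a second *Fkbp4* probe gave 0.25 with overlapping arrays. At the brightest probes *Fkbp4* was the only separate member (5.56%, against 1.19% of all genes), and the lowest member differed by -0.26. Mitotic genes were higher in 26 of 29 with 0 at an unadjusted p under 0.05, and their median of 0.099 turned to -0.103 on that same scale. Male-biased liver genes were lower in 16 of 21, with a median of -0.078 that turned to 0.066 with slide as a block. *Moxd1* had 4.34 in replicate 7 and 2.45 in replicate 8 and at most 0.74 on the arrays of the higher dose.

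Circadian clock genes were split 10 higher and 9 lower, and their median was -0.436, 0.312 and 0.186 on slides 1 to 3. Genes of glucose output were lower in 10 of 13 and those of bile acid synthesis and transport in 9 of 15, with *Nr0b2*, a repressor of bile acid synthesis, at -0.40 ± 0.23. With slide as a block the medians of these lists turned from -0.094 to 0.028 and from -0.069 to 0.111.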
